A study of Mus musculus with 12 samples.

Results

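The 10 genes described here carry peptides from the cytosol onto MHC class I (MHC-I) molecules. They were chosen by symbol as the genes of peptide transport, trimming and loading, without the MHC-I heavy chains, and are 10 of the 55536 genes summed from the 12 libraries. The libraries are bulk RNA-seq of primary mouse oligodendrocyte precursor cells (OPCs), the dividing cells from which myelin-forming oligodendrocytes arise, in 4 groups of 3 replicates. Untreated cells (Ctr) received neither agent. The EZH2i group received EPZ011989, an inhibitor of the H3K27 methyltransferase EZH2, for 4 days at a concentration of 1.5 μM, renewed after each 48 h. The IFN-γ group received 100 ng/ml of the cytokine for 6 h, and the combined group received the inhibitor for 4 days and then IFN-γ for 6 h along with fresh inhibitor.

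All groups came from pups of postnatal day 4 to 6 and grew in proliferation medium with PDGFaa and bFGF. The labels call the cells Sox10GFP+ OPCs, although the growth protocol allows either sorting for that reporter or CD140a beads. The study's mouse line expresses Cre from the Sox10 promoter and so marks the whole oligodendrocyte lineage, not OPCs alone. Brains of several pups were pooled for each experiment, and replicates came from different litters. The labels also tag the samples with EAE, a mouse model of multiple sclerosis, but the protocols describe cultured cells from pups.

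MHC-I molecules show peptides from inside the cell to CD8+ T cells. TAP1 and TAP2 together form the transporter that pumps cytosolic peptides into the endoplasmic reticulum (ER), where ERAP1 trims their N-terminal ends. Tapasin (Tapbp) holds an empty heavy chain with its light chain, β2-microglobulin (B2m), next to the transporter, with help from calreticulin (Calr) and the oxidoreductase ERp57 (Pdia3). Calnexin (Canx) acts on newly made heavy chains before that step, TAPBPR (Tapbpl) exchanges peptides away from the transporter, and NLRC5 is the transcriptional co-activator of MHC-I genes. Oligodendrocyte lineage cells normally make little MHC-I, and IFN-γ is a classical inducer of it.

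In the annotation of GRCm38, Tapbp (chromosome 17, 33915899 to 33929292), Tap1 (34187553 to 34197225) and Tap2 (34203527 to 34216321) lie in the MHC region on the plus strand. B2m (122147686 to 122153083) and Pdia3 (121413775 to 121438687) are on the plus strand of chromosome 2. Nlrc5 (94434356 to 94527272, plus strand) and Calr (84841850 to 84846934, minus strand) are on chromosome 8. Erap1 is on chromosome 13 (74639568 to 74693201, plus strand), Canx on chromosome 11 (50293961 to 50325673, minus strand) and Tapbpl on chromosome 6 (125223933 to 125231860, minus strand). All are protein coding and were counted over all their annotated transcripts.

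Libraries held 17403896 to 66546017 counts (median 33625880), and untreated replicate 2 was the shallowest. Levels are CPM, a gene's count divided by the library total after scaling with TMM factors. All 10 genes passed edgeR's filter on low counts, with 18995 genes tested in all, and a gene was called when its adjusted p was under 0.05. The 7 OPC markers summed to 4211 to 7640 CPM in every library. The 8 microglia and macrophage markers summed to 0.678 to 1.69 CPM. Among them C1qa had 0 counts in all 12 libraries, whereas P2ry12 and Csf1r had counts in all 12, with totals of 371 and 128. The 4 T cell markers summed to at most 0.199 CPM. Astrocyte markers summed to 176 to 897 CPM, so these cultures were not free of astrocyte RNA. In bulk RNA, fewer cells of a type and less RNA per cell cannot be told apart.

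IFN-γ alone raised 7 of the 10 genes, against 6.65% of all genes tested that were called higher. These were Nlrc5, both transporter genes, both tapasin family genes, B2m and Erap1, and none fell. The 3 chaperone genes Calr, Canx and Pdia3 were not called. The IFN-γ and untreated libraries did not overlap for any of the 7, a pattern found for 13.5% of all genes in the higher direction, and overlapped for the 3 chaperones. The OPC markers moved with the cytokine too, from sums of 6906 to 7640 CPM in untreated cells to 4571 to 6280 CPM with IFN-γ, with 2 of the 7 markers called lower, and their part in these results was not tested. The median log2 fold change over the 10 genes was 3.67, compared with 0.0010 over all genes tested.

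**Figure D1:**
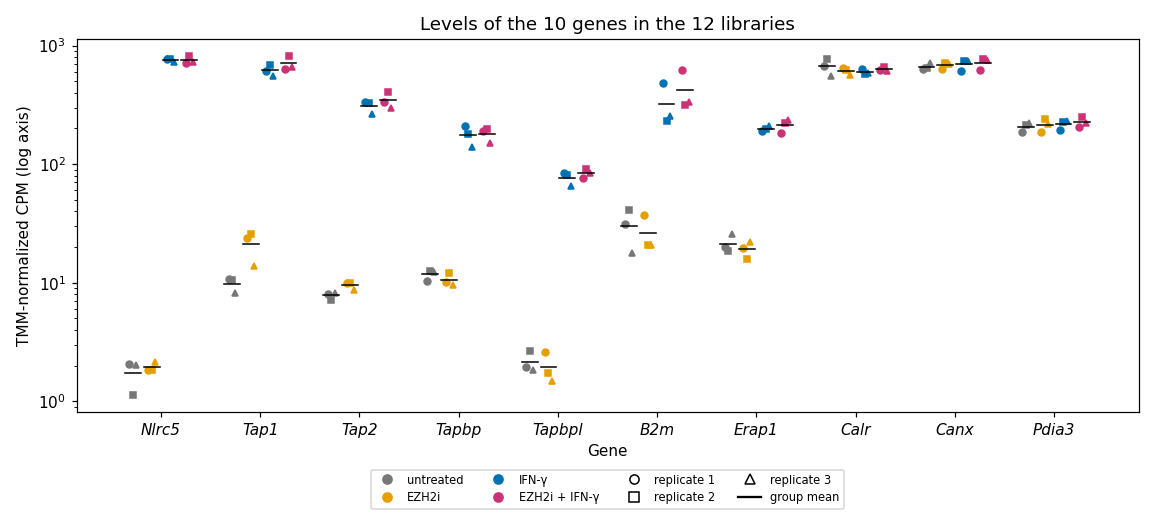
Levels of the 10 genes as TMM-normalized CPM on a log axis. Colors mark the 4 groups, symbols the replicate and black lines the group means. In 7 genes the 6 libraries with IFN-γ lay above the 6 without it, while Calr, Canx and Pdia3 stayed within 186 and 773 CPM in all libraries.

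Nlrc5 had the largest difference of the 10. It stood at 2.06, 1.13 and 2.04 CPM in untreated replicates 1, 2 and 3, from 58, 20 and 120 counts, and at 770, 772 and 723 CPM with IFN-γ. Its lowest treated library was far above its highest untreated one, and the IFN-γ libraries differed little among themselves. The log2 fold change was 8.71 ± 0.22 (SE, n = 3 and 3, edgeR quasi-likelihood adjusted p = 2.98e-10), and 0.216% of the genes tested had a larger one. As a fold this was 420, with a 95% confidence interval of 299 to 589. Over the 12 libraries, the genes whose log2 CPM was most like that of Nlrc5 included Psmb8, Gbp4, Irgm2 and Tgtp2, with Pearson's r from 0.9988 to 0.9994. These r values describe 12 libraries that fall into IFN-γ treated and other libraries, so most of each r is that one split.

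The transporter genes followed. Tap1 was at 10.7, 10.6 and 8.23 CPM in untreated cells and at 611, 688 and 558 CPM with IFN-γ. Tap2 was at 8.08, 7.11 and 8.21 CPM untreated and at 333, 329 and 263 CPM with IFN-γ. In both genes replicate 3 was the lowest of the IFN-γ libraries. The log2 fold change was 5.98 ± 0.26 for Tap1 (SE, edgeR adjusted p = 1.44e-08) and 5.30 ± 0.17 for Tap2 (edgeR adjusted p = 8.49e-10). Tap1 shares 212 exonic bases with Psmb9 on the opposite strand, and Tap2 shares 533 with Gm15821 and 165 with Gm20496, also on the opposite strand. The library kit keeps the strand, but the strand setting of the counting is not given in the sources used here.

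Among the loading factors, Tapbp was at 10.4, 12.5 and 12.3 CPM in untreated cells and at 212, 179 and 139 CPM with IFN-γ, a log2 difference of 3.91 ± 0.19 (SE, edgeR adjusted p = 3.95e-08). Tapbpl started lower, at 1.95, 2.65 and 1.85 CPM from 47 to 109 counts, and reached 83.7, 81.0 and 65.2 CPM. Its log2 fold change was 5.18 ± 0.23 (SE, edgeR adjusted p = 1.82e-08). The treated libraries of either gene kept well clear of the untreated ones, with replicate 3 lowest in both. Tapbp overlaps exons of Gm19412 over 904 bases on the opposite strand and of Zbtb22 over 149 bases on the same strand.

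Erap1, the trimming peptidase, was at 19.9, 18.5 and 25.8 CPM in untreated cells and at 189, 197 and 212 CPM with IFN-γ. The 3 IFN-γ libraries were close together and their log2 fold change of 3.21 ± 0.17 (SE, edgeR adjusted p = 9.17e-08) was the smallest of the 7. Erap1 shares 834 exonic bases with Cast on the opposite strand.

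B2m varied most between replicates. Its untreated libraries were at 31.3, 40.9 and 17.7 CPM, and its IFN-γ libraries were at 482, 232 and 255 CPM. Replicate 1 was the highest of the IFN-γ libraries, yet even the lowest of them lay above every untreated library. The log2 fold change was 3.44 ± 0.42 (SE, edgeR adjusted p = 1.92e-04), a fold of 10.8 with a 95% confidence interval of 5.70 to 20.5, the widest on the log2 scale among the 10 genes.

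The stretch upstream of B2m is shown because it holds several letter patterns known from promoters of the MHC-I and interferon pathways. It was read from the RefSeq promoter table of GRCm38.p6, which matched 7 of the 10 symbols (Tap1, Tapbp, B2m, Erap1, Calr, Canx and Pdia3), and covers chr2:122147437-122147685 on the plus strand. Positions count back from the RefSeq start, and 1 base just before that start lies in an annotated exon and is not printed. Capitals mark, from left to right, an interferon regulatory factor pattern (GAAANNGAA, at -139), the core of a cyclic AMP response element (TGACG, at -78) and a CCAAT box on the minus strand (at -53).

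B2m upstream: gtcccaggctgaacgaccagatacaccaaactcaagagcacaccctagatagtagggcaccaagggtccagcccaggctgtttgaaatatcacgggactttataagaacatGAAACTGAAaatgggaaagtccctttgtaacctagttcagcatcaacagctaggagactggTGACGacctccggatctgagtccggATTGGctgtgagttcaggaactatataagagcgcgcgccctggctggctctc

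The last pair is set 20 bases apart. Patterns were searched on both strands of the 250 bases upstream of each start. GAAANNGAA was in 7.13% of all 32851 windows of the table, TGACG in 17.8% and CCAAT in 33.8%. Of the 7 windows matched, GAAANNGAA was in B2m and Erap1, TGACG in B2m, Tap1, Canx and Pdia3, and CCAAT in all but Erap1. In Tap1, Tapbp, Erap1 and Pdia3 all 250 bases of the window lie in annotated exons, so their matches are not in exon-free promoter sequence. A further pattern searched was in none of the 7 windows and in 7.02% of all windows. The patterns marked did not overlap each other in the B2m window, and a match is a description of the letters only.

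The chaperone genes were the most abundant of the 10 in untreated cells. Calr was at 676, 773 and 550 CPM untreated and at 634, 571 and 585 CPM with IFN-γ. Canx was at 633, 642 and 711 CPM untreated and at 609, 739 and 746 CPM with IFN-γ, and Pdia3 at 186, 214 and 221 CPM and at 193, 226 and 231 CPM. The groups overlapped in all 3 genes. The log2 fold changes were -0.16 for Calr (95% confidence interval -0.45 to 0.13), 0.08 for Canx (-0.21 to 0.36) and 0.06 for Pdia3 (-0.22 to 0.35), with edgeR adjusted p of 0.610, 0.839 and 0.866. As folds, these intervals span 0.734 to 1.28, below the lower bound of 5.70 in B2m, the lowest among the 7 genes that rose.

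The upstream stretches of Calr and Canx are shown because both hold the ER stress response element, a CCAAT box and CCACG with 9 bases between them, which is known from genes of ER folding. It is in 37 of the 32851 windows (0.113%) and in no other window of the 7. Capitals mark the element, which begins at -162 on the minus strand in Calr (chr8:84846935-84847181, minus strand) and at -145 in Canx (chr11:50325674-50325923, minus strand). The 3 bases just before the RefSeq start of Calr lie in an annotated exon and are not printed. The element contains 1 of the CCAAT matches counted above in each gene.

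Calr upstream: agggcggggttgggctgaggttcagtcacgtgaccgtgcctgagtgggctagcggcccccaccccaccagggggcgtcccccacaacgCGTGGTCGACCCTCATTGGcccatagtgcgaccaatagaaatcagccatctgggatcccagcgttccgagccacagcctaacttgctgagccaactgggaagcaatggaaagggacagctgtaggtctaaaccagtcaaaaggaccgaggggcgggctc

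Canx upstream: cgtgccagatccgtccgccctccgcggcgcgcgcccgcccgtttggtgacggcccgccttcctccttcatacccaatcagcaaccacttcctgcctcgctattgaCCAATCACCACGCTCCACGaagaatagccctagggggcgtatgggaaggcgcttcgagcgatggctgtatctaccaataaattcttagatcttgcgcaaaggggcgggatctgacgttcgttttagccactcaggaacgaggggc

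With the inhibitor present throughout, IFN-γ raised the same 7 genes and left the 3 chaperones uncalled, with 5.9% of all genes called higher in that comparison. Again the 7 did not overlap between groups, as was the case for 11.8% of all genes in the higher direction. Nlrc5 was at 1.82, 1.84 and 2.13 CPM with the inhibitor alone and at 713, 814 and 722 CPM with both agents, a log2 fold change of 8.59 ± 0.22 (SE, edgeR adjusted p = 2.22e-10). B2m again had its highest library in replicate 1 of the combined group, at 618, 315 and 331 CPM, against 37.1, 20.9 and 20.8 CPM with the inhibitor alone. Its log2 fold change was 4.01 ± 0.43 (SE, edgeR adjusted p = 6.26e-05).

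The other 5 lay between log2 fold changes of 3.47 for Erap1 and 5.46 for Tapbpl in the inhibitor-treated cells, with Tapbp at 4.09, Tap1 at 5.07 and Tap2 at 5.18. The chaperones were at 0.05 (Calr), 0.07 (Canx) and 0.07 (Pdia3). With both agents Calr lay between 607 and 659 CPM, Canx between 621 and 769 CPM and Pdia3 between 207 and 249 CPM, which overlapped the ranges of the inhibitor alone.

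**Figure D2:**
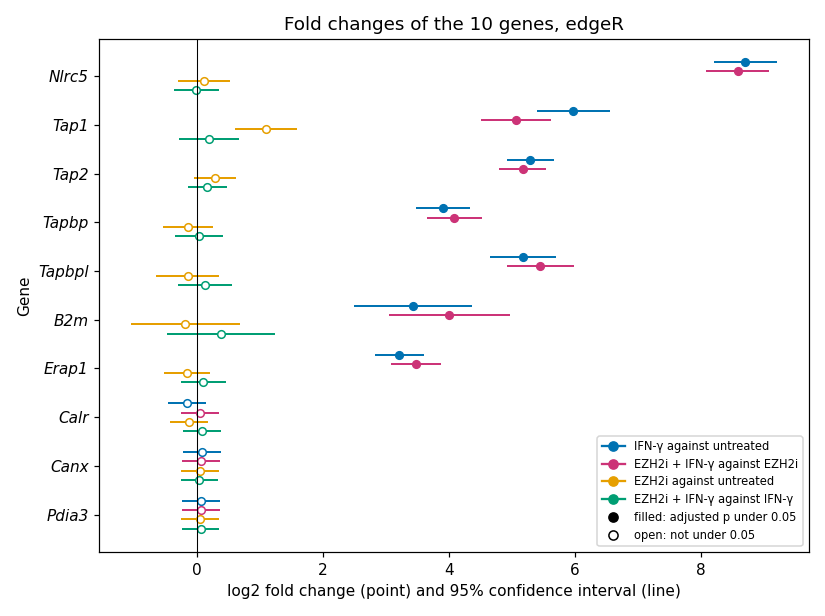
log2 fold changes from edgeR (points) with 95% confidence intervals (lines) for 4 comparisons. Filled points have an adjusted p under 0.05. Both IFN-γ comparisons lie between 3.21 and 8.71 for 7 genes, and the inhibitor comparisons lie near 0 but for Tap1, at 1.10 without IFN-γ.

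EZH2i without IFN-γ called none of the 10 genes in edgeR, and 0.405% of all genes were called in either direction. Of the 10 genes 1, Tap1, had an unadjusted edgeR p under 0.05, against 1338 of all 18995 genes tested. Tap1 was at 23.6, 25.8 and 13.7 CPM with the inhibitor, against 10.7, 10.6 and 8.23 CPM without it. All 3 inhibitor libraries were above the 3 untreated ones, and replicate 3 was the lowest in either group. The log2 fold change was 1.10 ± 0.22 (SE, 95% confidence interval 0.62 to 1.58), with an edgeR adjusted p of 0.0602, just outside the threshold. DESeq2, which called 1.45% of its genes in this comparison, gave an adjusted p of 9.52e-04, and without EZH2i replicate 3 edgeR gave 0.00729 at a log2 fold change of 1.34. In a fit blocked on replicate number its adjusted p was 0.00139, whereas it was 0.168 when only the 6 libraries compared were fitted, 0.251 without EZH2i replicate 2 and 1.00 without replicate 2 of all groups. The call thus rests on the setting.

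Tap2 also did not overlap between the groups, at 9.97, 10.0 and 8.76 CPM with the inhibitor against 8.08, 7.11 and 8.21 CPM without it. This pattern held for 7.37% of all genes in the higher direction. Its log2 fold change was 0.29 ± 0.14 (SE, edgeR adjusted p = 0.790). The other 8 genes overlapped, with log2 fold changes from -0.19 in B2m to 0.11 in Nlrc5. Nlrc5 with the inhibitor alone stayed at 51 to 140 counts per library.

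The OPC markers also summed to less in the inhibitor libraries, 6055 to 6478 CPM against 6906 to 7640 CPM, without overlap. So did the maturing oligodendrocyte markers, at 808 to 1287 CPM against 1471 to 1839 CPM. Astrocyte marker RNA tended higher, at 332 to 708 CPM against 180 to 443 CPM, with overlap. Sums of neuron markers, at 29.7 to 49.1 CPM against 16.0 to 19.2 CPM, and of endothelial markers, at 19.5 to 35.4 CPM against 9.20 to 16.9 CPM, were higher without overlap. The endothelial sum was mostly Flt1, with a mean of 17.7 CPM over the 12 libraries. Cldn5, Pecam1 and Cdh5 had means of 0.617, 0.414 and 0.0422 CPM. Among neuron markers Snap25 had the highest mean, 17.2 CPM, followed by Syt1 at 5.74 CPM. No tested marker of the OPC, maturing oligodendrocyte, astrocyte, neuron or endothelial lists was called with the inhibitor. The part of cell makeup in the Tap1 values was not tested.

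Added to IFN-γ, the inhibitor changed none of the 10 genes at an adjusted p under 0.05, at an unadjusted p under 0.05 or in DESeq2. In that comparison 0.353% of all genes were called, or 67, and 748 when the replicate number was a term in the fit, which again called none of the 10. An unadjusted edgeR p under 0.05 was found for 1220 of 18995 genes. The groups overlapped in all 10 genes, whereas 6.08% of all genes were higher without overlap. Tap1 was at 638, 818 and 660 CPM with both agents against 611, 688 and 558 CPM with IFN-γ alone, a log2 difference of 0.19 (95% confidence interval -0.27 to 0.65). Nlrc5 differed by -0.01 (-0.35 to 0.33) and B2m by 0.38 (-0.45 to 1.22). The intervals of the other members lay between -0.34 and 0.54. Within replicate numbers, B2m was higher with both agents in 3 of 3 pairs, by ratios of 1.28 to 1.36. Tap1, Tap2 and Canx were also higher in 3 of 3 pairs, another 5 members in 2 and Nlrc5 in 1. The share of all genes with such a pattern was not computed, so these counts only describe the pairs. In the fit blocked on replicate number, the edgeR adjusted p was 0.416 for B2m, 0.502 for Tap1, 0.440 for Tap2 and 0.872 for Canx. That fit blocked all 12 libraries, also the untreated ones, whose numbers were not taken as pairs. A paired fit of these groups alone was not run, and the intervals above do not use the pairing.

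The interaction asks whether the effect of IFN-γ differed between cells with and without the inhibitor. It was called for none of the 10 genes and for 0% of all genes, although 127 of 18995 genes had an unadjusted p under 0.05, and DESeq2 called none either. Tap1 had the largest value of the 10 in size, -0.91 ± 0.30 on the log2 scale (SE, 95% confidence interval -1.57 to -0.25, edgeR adjusted p = 1.00). It was the only one of the 10 among those with an unadjusted p under 0.05. Its IFN-γ effect was 63.2-fold without the inhibitor and 33.6-fold with it, from a higher starting level with the inhibitor. The next in size was B2m at 0.57 ± 0.55 (SE), and the others lay between -0.12 and 0.27. These comparisons share libraries, so their values are given side by side and not as separate evidence.

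Levels per transcript length (TPM), summed here over all transcripts of a gene, coding or not, allow the genes to be ranked within a group. In untreated cells the order was Calr at 318 ± 65.5 TPM (SD, n = 3), Canx at 204 ± 28.6, Pdia3 at 54.7 ± 16.3 and B2m at 29.6 ± 11.2. Then came Erap1 at 6.14 ± 0.98, Tapbp at 4.08 ± 1.21, Tap1 at 2.37 ± 0.30, Tap2 at 2.03 ± 0.45, Tapbpl at 0.66 ± 0.19 and Nlrc5 at 0.38 ± 0.18 TPM. Neighbours overlapped between Pdia3 and B2m, Tap1 and Tap2, and Tapbpl and Nlrc5, and were apart elsewhere. With IFN-γ, B2m at 374 ± 143 TPM reached the level of Calr at 321 ± 17.0, with Canx at 224 ± 16.0, Tap1 at 182 ± 36.8 and Nlrc5 at 156 ± 22.1 TPM behind them. The remaining order was Tap2 at 92.8 ± 17.4, Tapbp at 74.8 ± 19.8, Pdia3 at 65.3 ± 11.0, Erap1 at 55.5 ± 9.05 and Tapbpl at 27.2 ± 5.15 TPM. B2m and Calr overlapped, as did Canx with Tap1, Tap1 with Nlrc5 and each neighbour from Tap2 to Erap1. By these sums Tapbpl stayed lowest. By TPM summed over all its transcripts, Nlrc5 thus moved from the lowest place to a level above Pdia3. Its 53-exon coding transcript Nlrc5-207 alone was at 63.5, 75.2 and 61.2 TPM with IFN-γ. That is within the 54.5 to 76.5 TPM of Pdia3, so the rank rests on the other annotated transcripts of Nlrc5.

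In TPM summed over all transcripts, Tap1 and Tap2 were near equal in untreated cells, with a ratio of 1.01 to 1.31 in the 3 libraries. There Tap2-202, annotated as a retained intron transcript, held 74.5% to 82.3% of Tap2. The coding Tap2-201 was at 0.290, 0.352 and 0.643 TPM, below the coding Tap1-206 at 1.70, 2.11 and 1.85 TPM. The ratio of the gene sums is thus not one of coding transcripts. The ratio of the sums was 1.47 to 2.19 with the inhibitor, 1.79 to 2.07 with IFN-γ and 1.85 to 2.12 with both. No treated library reached down to the untreated range. The ratio of Tapbp to Tapbpl ran the other way, from 5.62 to 7.04 in untreated cells to 2.40 to 3.04 with IFN-γ and 2.17 to 2.82 with both. It was scattered with the inhibitor alone, at 4.08 to 10.4, where Tapbpl rests on 63 to 98 counts. The ratios were not tested.

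**Figure D3:**
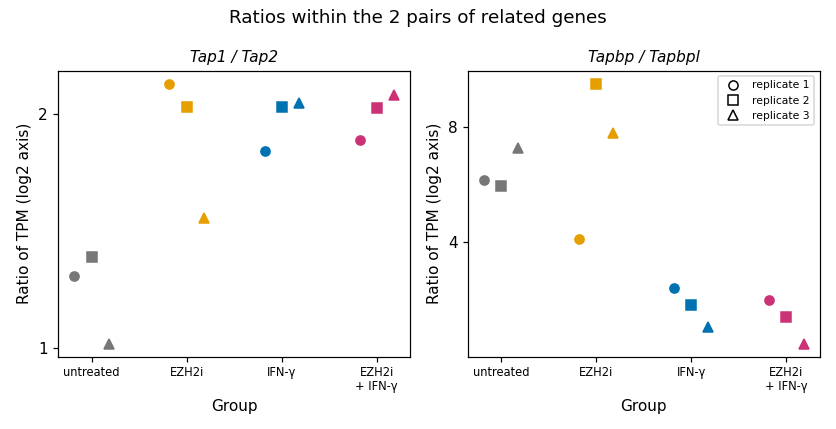
Ratio of TPM between Tap1 and Tap2 (left) and between Tapbp and Tapbpl (right) in each library on log2 axes, by group and replicate. TPM is summed over all transcripts of a gene, coding or not. Untreated cells have the lowest Tap1 to Tap2 ratios, 1.01 to 1.31, and the IFN-γ groups have the lowest Tapbp to Tapbpl ratios, 2.17 to 3.04.

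Since the values were deposited per transcript, the reads of each gene could be followed to its annotated transcripts. B2m and Tapbpl each had a single transcript, and Pdia3-201 made up at least 96.4% of Pdia3 in every library. In 6 members at least a pair of transcripts had a mean share of 10% or more of the gene's TPM, which gave 16 transcripts to compare between the 6 libraries with and the 6 without IFN-γ. The largest differences in mean share were in Tapbp. Tapbp-206 made up 34.5%, 41.6% and 44.3% in untreated cells and 39.2%, 22.2% and 38.0% with the inhibitor, but 57.7%, 54.6% and 62.6% with IFN-γ and 56.4%, 56.7% and 55.2% with both. Tapbp-201, which starts 305 bases upstream of it, made up 37.7%, 24.1% and 33.1%, then 38.3%, 28.5% and 28.2%, against 9.47%, 10.6% and 11.0% with IFN-γ and 14.9%, 13.4% and 12.8% with both.

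Neither transcript's shares overlapped between libraries with and without IFN-γ, a pattern seen for 0.518% of the 27402 transcripts compared in the same way. The mean share differed by -19.6 percentage points for Tapbp-201 and by 20.6 for Tapbp-206 (both p = 0.0022, two-sided exact permutation test, the smallest p that 6 against 6 libraries can give). Adjusted over all 27402 transcripts the value was 0.418 for both, so neither passed. Without IFN-γ Tapbp-201 rests on 79.7 to 319 estimated reads and Tapbp-206 on 122 to 378. Most of the sequence of both is shared, and the division between them is Salmon's estimate. In reads, neither was lower with IFN-γ, when Tapbp-201 held 902 to 1405 reads and Tapbp-206 held 3140 to 7045.

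**Figure D4:**
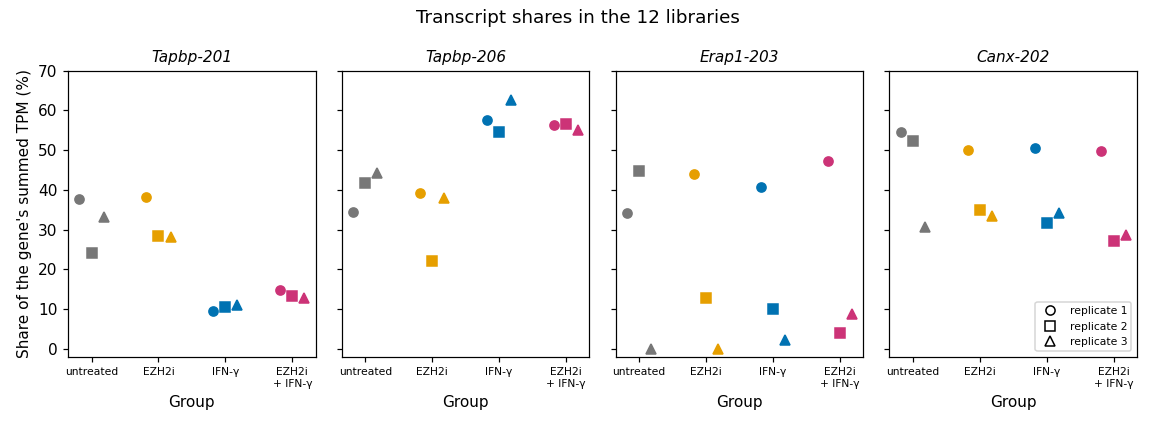
Share of the gene's summed TPM held by 4 transcripts in each library, in percent, by group and replicate. Tapbp-201 lies at 24.1% to 38.3% without IFN-γ and 9.47% to 14.9% with it, Tapbp-206 moves the other way, and Erap1-203 and Canx-202 are high in replicate 1 of every group and in untreated replicate 2.

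Of the other 14 transcripts, 1 had an unadjusted p under 0.05, Tapbp-208 (0.0195, exact permutation test, 0.950 after adjustment over all 27402 transcripts). It rests on at most 7.42 reads in libraries without IFN-γ. Shares of Tapbp transcripts are parts of 1 total, so they are not separate results. Tap2-202, annotated as a retained intron transcript of 2561 bases, held 58.2% to 84.2% of Tap2 in all libraries, and the coding Tap2-201 held 15.8% to 25.5%. With IFN-γ, Nlrc5-207, the 53-exon coding transcript, held 40.4% to 45.4% of Nlrc5 by TPM and 85.0% to 88.3% by reads. Without it the shares of Nlrc5 transcripts spread from 0% to 57.0% and rest on few reads.

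Short transcripts of Erap1 and Canx varied between replicates of the same group. Erap1-203, of 354 bases, held 34.3% to 47.3% of Erap1 in replicate 1 of every group and in untreated replicate 2, and 0% to 12.7% elsewhere. Canx-202, of 708 bases, held 49.7% to 54.6% in the same 5 libraries and 27.1% to 35.0% in the other 7. B2m was also highest within each group in one of these libraries. TPM of Canx and Erap1 and their ranks carry this difference, while in reads Canx-202 held 5.02% to 14.5% of Canx and Erap1-203 held 0% to 4.14% of Erap1. The origin of the difference between replicates was not tested.

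Further genes of the pathway were grouped by role. Of 18 MHC-I heavy chain and related genes, 14 were tested and 10 rose with IFN-γ, with a median log2 fold change of 2.43. The largest was H2-T23, a nonclassical heavy chain, from 0.634 ± 0.275 to 108 ± 18.2 CPM (SD, n = 3, log2 fold change 7.46), and the smallest among those called was H2-K1, a classical heavy chain, from 24.5 ± 3.71 to 123 ± 25.3 CPM (2.33). With the inhibitor present 10 of 14 also rose, from 2.18 for H2-Q10 to 6.69 for H2-T23. The inhibitor alone called 1 of the 14, H2-Q6, at 0.0170 ± 0.0294 CPM in untreated cells and 0.298 ± 0.0317 CPM with the inhibitor (SD, n = 3, edgeR adjusted p = 0.0407). DESeq2 called 3 of the 14 and 6 had an unadjusted edgeR p under 0.05, with a median log2 fold change of 0.51. Over all genes these counts were 308 of 21249 in DESeq2 and 1338 of 18995 unadjusted. Added to IFN-γ, the inhibitor again called H2-Q6, from 1.50 ± 0.203 to 6.42 ± 1.91 CPM (SD, n = 3, edgeR adjusted p = 0.0347). DESeq2 called 4 of the 14, 8 had an unadjusted edgeR p under 0.05 and the median was 0.62. Over all genes the counts were 263 of 22442 in DESeq2 and 1220 of 18995 unadjusted. The untreated level of H2-Q6 is too low to carry a fold, and reads of H2-Q genes can be shared between near-identical copies.

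Of 17 genes that supply peptides, 6 rose with IFN-γ and 11 were not called, both with and without the inhibitor. Those that rose were the immunoproteasome subunits Psmb8, Psmb9 and Psmb10, the proteasome activator genes Psme1 and Psme2, and the peptidase Lap3. Psmb8 went from 0.690 ± 0.157 to 163 ± 14.6 CPM (SD, n = 3) at a log2 fold change of 7.83, and Lap3 from 88.1 ± 6.42 to 281 ± 8.07 CPM at 1.67. The constitutive counterparts Psmb5, Psmb6 and Psmb7 had log2 fold changes of 0.36, -0.03 and 0.21 and were not called.

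Of 17 genes upstream of NLRC5 or acting with it, 8 rose and 9 were not called in either IFN-γ comparison. The largest change was in Ciita, the co-activator of MHC class II genes and a relative of NLRC5, from 1.21 ± 0.662 to 169 ± 2.67 CPM (SD, n = 3, log2 fold change 7.24). The smallest among those called was Nfyb, a subunit of the CCAAT-binding factor NF-Y, from 26.8 ± 2.06 to 46.7 ± 1.77 CPM (0.80). Irf1, Irf2, Jak1, Jak2 and the feedback inhibitor Socs1 were among the others that rose. The RFX subunits Rfx5, Rfxap and Rfxank, through which NLRC5 contacts promoters, had log2 fold changes of 0.34, 0.06 and -0.29 and were not called, nor were the receptor genes Ifngr1 and Ifngr2.

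None of 23 general ER folding genes was called with IFN-γ in edgeR or DESeq2, with or without the inhibitor, 0 and 1 had an unadjusted edgeR p under 0.05 without and with it, and their median log2 fold changes were 0.09 and 0.11. The values without the inhibitor ranged from -0.12 for Hsp90b1 to 0.27 for Creld2, with the major ER chaperone Hspa5 at 0.27. The 3 chaperone genes among the 10 lay in the same range but for Calr, at -0.16. Of 14 relatives of the 10 genes outside the MHC-I pathway, 10 were tested. IFN-γ raised Nod1 (6.36) and Nod2 (2.83), innate receptors of the same family as NLRC5, and Abcb9, a lysosomal peptide transporter related to TAP, fell by 0.98 on the log2 scale from 5.31 ± 0.544 to 2.70 ± 0.460 CPM (SD, n = 3, edgeR adjusted p = 0.0320).

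**Figure D5:**
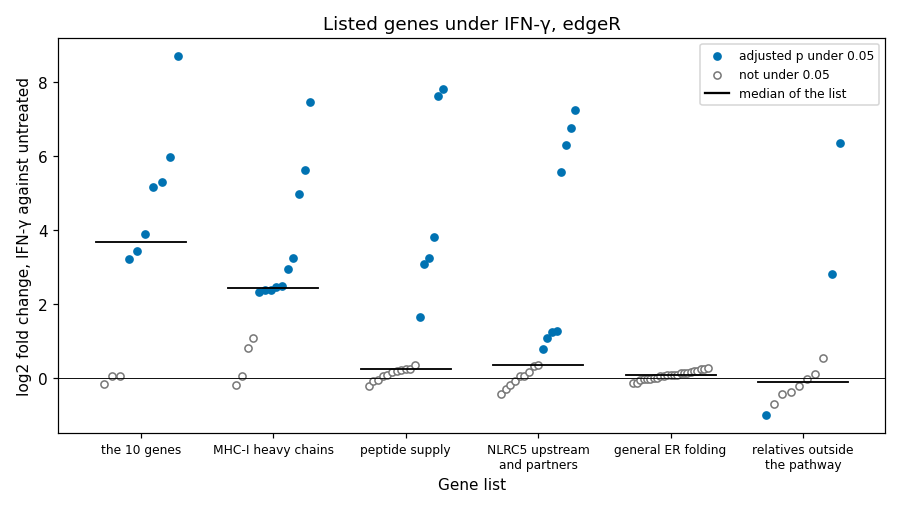
log2 fold changes of IFN-γ against untreated cells for each gene tested of the 10 genes and of 5 related lists. Filled points have an edgeR adjusted p under 0.05 and lines are list medians, from 3.67 for the 10 genes to 0.09 for the general ER folding genes, where no point is filled, and -0.11 for the relatives.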

How the data were processed

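RNA from 12 cultures was sequenced from stranded total RNA libraries. As the study's methods describe, the authors trimmed the reads, mapped them with STAR for tracks, and ran Salmon 0.8.2 for abundance. The deposited files give, per transcript and library, Salmon's estimated count and its length-normalized TPM. The strand setting of Salmon is not given in the sources used here. All 141862 transcript identifiers matched GENCODE M21 (GRCm38), from which genes and positions were taken. A pair of deposited tables of the authors' own DESeq2 comparisons, with fold changes and p-values, was not used.

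Gene counts are sums of the transcripts' estimated counts, rounded. Groups came from the labels. The main test was edgeR 4.0.16 (R 4.3.3, limma 3.58.1): TMM factors, filterByExpr, group as the only term, all 12 libraries, a quasi-likelihood test and Benjamini-Hochberg adjustment over 18995 genes, with calls at an adjusted p under 0.05. The interaction is the difference between both IFN-γ effects. It was tested on simulated data with known changes. Replicates came from different litters as the study's methods describe, and p-values measure the spread between them. Library totals differed 3.82-fold, and low genes rest on fewer counts in shallow libraries. Transcript shares (percent of the gene's TPM) were compared by a two-sided exact permutation test for transcripts with a mean share of at least 10%. Adjustment was over all 27402 such transcripts of the series, and not, as first planned, over those of the 10 genes.

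Alternatives were RLE factors, no filter, at least 10 counts in every sample, DESeq2 1.42.0, length-scaled TPM, a block for the replicate number, only the libraries compared, each library left out, and for shares NumReads and a minimum of 5%. Leaving out a whole replicate number was added after seeing the data. Libraries with the same number deviated together among the EZH2i, IFN-γ and combined groups (correlations of 0.450 to 0.642), so the numbers pair these 3 groups. Against untreated cells, replicates 1 and 3 also did (0.411 to 0.544), but replicate 2 did not (0.0134 to 0.0854), so the numbers were not taken to pair the untreated group. The 10 genes and all lists were chosen with earlier results of these data known. All 10 genes are named, the examples of each list are its called genes with the largest and smallest change, and the genes like Nlrc5 are the 5 with the highest r of log2 CPM (prior count 2). One gene that these rules name is not reported here. Psmb9, Psmb10, Psme1, Psme2, Psmb5, Psmb6, Psmb7, Irf1, Irf2, Jak1, Jak2, Socs1, Rfx5, Rfxap, Rfxank, Ifngr1, Ifngr2, Hspa5, Hsp90b1, Creld2 and Nod2 were named by role after their values were seen.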

Additional observations from a re-analysis of the deposited data

How the results depend on the processing

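In both IFN-γ comparisons 7 of the 10 genes were called under every alternative run. The inhibitor alone called 0 genes in edgeR as described and 1 (Tap1) without a filter on low counts, in DESeq2 and with the replicate block, and 0 to 1 when a library was left out. The cause was not tested. Tap1 had adjusted p-values from 9.52e-04 (DESeq2) to 0.251 (without EZH2i replicate 2) over the other settings and left-out libraries, and 0.0976 to 1.00 without a whole replicate number. The replicate block gave a log2 fold change of 1.06 for Tap1 (adjusted p = 0.00139), raised the calls over all genes from 77 to 771 with the inhibitor alone and from 1663 to 4032 with IFN-γ alone, and from 1533 to 3661 in the paired comparison of IFN-γ in inhibitor-treated cells, and changed no other call of the 10 genes. Against untreated cells the same-number correlation was under 0.1 only for replicate 2, and a library correlated best with its own number in 8 of 9 cases, a hint from the data and not the design.

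Changes of sign were confined to log2 fold changes and shares that were not called. Canx had an interaction of 0.0024 with RLE factors and 0.0022 in DESeq2, and Pdia3 of -0.016 with no filter. Length-scaled TPM gave Canx -0.073 (IFN-γ alone), -0.0046 (IFN-γ with the inhibitor), -0.082 (inhibitor alone), -0.014 (inhibitor with IFN-γ) and 0.068 (interaction), Tapbp 0.041 (inhibitor alone), -0.00043 (inhibitor with IFN-γ) and -0.041 (interaction), and Nlrc5 0.024 (inhibitor with IFN-γ). The Nlrc5-209 share differed by -0.199 points in NumReads. Leaving out libraries, the inhibitor alone ranged from -0.52 to 0.23 in B2m, -0.016 to 0.10 in Canx, -0.28 to 0.0014 in Erap1, -0.079 to 0.24 in Nlrc5, -0.031 to 0.14 in Pdia3 and -0.43 to 0.074 in Tapbpl. The inhibitor with IFN-γ ranged from -0.0072 to 0.79 in B2m, -0.052 to 0.13 in Canx, -0.076 to 0.038 in Nlrc5, -0.022 to 0.12 in Pdia3 and -0.12 to 0.18 in Tapbp. IFN-γ alone ranged from -0.013 to 0.14 in Pdia3, and IFN-γ with the inhibitor from -0.020 to 0.15 in Pdia3 and -0.0035 to 0.092 in Calr. The interaction ranged from -0.097 to 0.082 in Canx, -0.26 to 0.067 in Nlrc5 and -0.086 to 0.087 in Pdia3. Shares ranged from -1.75 to 4.81 points for Erap1-201, -9.52 to 0.587 for Erap1-203, -1.61 to 0.293 for Erap1-206, -3.84 to 6.40 for Nlrc5-206, -7.35 to 0.373 for Nlrc5-208, -0.862 to 1.09 for Tap2-201 and -0.626 to 4.57 for Tap2-202. Without IFN-γ, Nlrc5 at 20 to 140 counts and Tapbpl at 47 to 109 counts a library limit the precision of their folds and shares.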
